A study of Mus musculus with 8 samples.

Results

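Myeloid cell conditional FoxO1-knockout mice and their WT littermates, both on a NASH-inducing diet, were compared in 10 genes that mark the ductular reaction, the liver's epithelial filaments and fetal or tumor-like liver. The 10 were named by symbol as markers of bile duct cells, progenitor cells and oncofetal liver, and each was found as 1 row among the 46517 genes of the count table. Liver RNA was sequenced from 4 MøFoxO1-KO mice, which carried FoxO1 loxP/loxP together with Lyz2-Cre, and from 4 WT littermates, which carried FoxO1 loxP/loxP without Cre, so that both groups had floxed FoxO1 alleles. Both groups were male C57BL/6 mice, 31 weeks old, that had eaten this diet for 25 weeks since the age of 6 weeks, with a 16-hour fast at the end. The Lyz2 promoter drives Cre in myeloid cells, which are a small part of the whole liver that was sequenced.

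When bile ducts or hepatocytes are injured for long, the liver forms small irregular ducts at the edge of the portal tracts, a response known as the ductular reaction. Its cells carry the duct keratins KRT19 and KRT7, the adhesion molecule EPCAM and the transcription factor SOX9, and secrete osteopontin, the product of Spp1. Hepatocytes hold a single keratin pair, KRT8 with KRT18, which also collects in the Mallory-Denk bodies of ballooned cells in steatohepatitis. Afp, Gpc3 and H19 are made in the fetal liver, are silenced after birth, and come back in many hepatocellular carcinomas. The question was whether the livers of MøFoxO1-KO and WT mice differed in these genes.

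Total counts lay between 15253218 and 18025481 per mouse. The mitochondrial share of the reads was 4.163 to 6.332%, and Alb, the hepatocyte gene for albumin, took 4.724 to 6.734%, so that hepatocyte RNA was plain in each library. Foxo1 itself, the targeted gene, ranged from 302.7 to 459.2 normalized counts in WT livers and from 289.9 to 429.4 in MøFoxO1-KO livers, with a log2 fold change of -0.17 (SE 0.18, edgeR adjusted p = 0.686), and a whole-liver value of a gene deleted in myeloid cells gives a weak check of the genotype. Values below are counts normalized by the trimmed mean of M values (TMM) to a common library size, and fold changes are MøFoxO1-KO against WT on the log2 scale.

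No member was called. Of the 10 genes 9, all but H19, passed the filter on low counts. Of these 9, 0 had an adjusted p under 0.05 together with a log2 fold change over 1.5 in size, where 0.188% of the 13278 genes tested were called, and 0 had an adjusted p under 0.05 alone, where 0.294% of the tested genes did. By DESeq2, 0 of the 9 had an adjusted p under 0.05, against 4.42% of all genes, and by limma-voom 0 were called. At an unadjusted p under 0.05, edgeR had 1 of the 9, Krt8, against 16.7% of the tested genes. Groups did not overlap in 0 of the 9, against 9.71% of the tested genes. The fitted log2 fold change was below 0 in 7 of the 9 and above 0 in 2, with a median of -0.19 beside -0.01 over all tested genes.

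**Figure D1:**
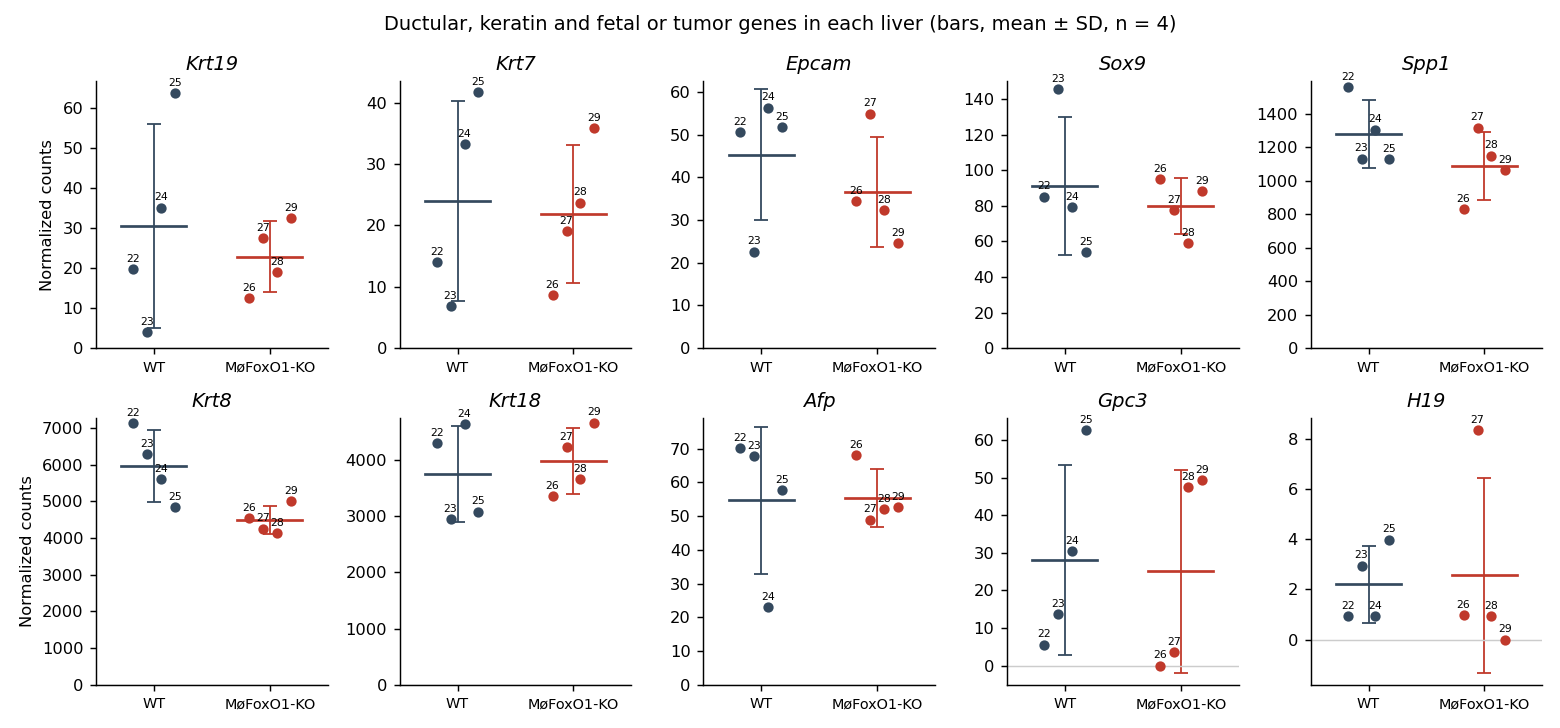
Normalized counts (vertical axes, linear, each with its own scale) of the 10 genes in each liver, with WT in dark blue, MøFoxO1-KO in red, the mouse number beside each point, and horizontal and vertical bars for the mean and SD of 4 mice. In each of the 10 panels the groups overlap, and in the Krt8 panel 3 of the 4 MøFoxO1-KO livers lie below the lowest WT liver at 4839.

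The duct keratins were near the bottom of what was measured. Krt19 (chr11:100140810-100148665, minus strand, GRCm38 as for the genes below), the classical keratin of bile duct cells, stood at 19.7, 3.93, 35.1 and 63.7 normalized counts in WT mice 22, 23, 24 and 25, and at 12.5, 27.5, 18.98 and 32.5 in MøFoxO1-KO mice 26, 27, 28 and 29. The WT livers held both the lowest and the highest value, and the MøFoxO1-KO livers lay between them. The means were 30.6 ± 25.5 in WT and 22.8 ± 8.88 in MøFoxO1-KO mice (SD, n = 4 each), a log2 fold change of -0.43 (95% interval -1.85 to 0.99, adjusted p = 0.779). These values rest on 4 to 64 reads per mouse.

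Krt7 (chr15:101411043-101430313, plus strand), the other duct keratin, gave 14.05, 6.88, 33.2 and 41.8 normalized counts in the WT and 8.63, 19.1, 23.7 and 35.8 in the MøFoxO1-KO livers. The order of the mice was close to that of Krt19, with WT mouse 25 highest and WT mouse 23 lowest in both. Its log2 fold change was -0.14 (95% interval -1.42 to 1.14, adjusted p = 0.927). The antisense gene Gm671 overlaps 1269 bases of Krt7. The intervals of Krt19 and Krt7 both reach past -1, so even a difference of that size on the log2 scale was not detectable at this depth and spread.

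Epcam (chr17:87635979-87651106, plus strand), the gene of an adhesion molecule on duct and progenitor cells, stood at 50.6, 22.6, 56.3 and 51.8 normalized counts in WT and at 34.5, 54.9, 32.3 and 24.6 in MøFoxO1-KO livers. Of the 4 MøFoxO1-KO livers 3 lay below 3 of the 4 WT livers, but WT mouse 23 was the lowest of the 8. The log2 fold change was -0.31 (95% interval -1.10 to 0.47, adjusted p = 0.701). Sox9 (chr11:112782224-112787760, plus strand), whose product sets the duct cell fate and is also found in hepatocytes beside the portal tract, reached 85.2, 145.5, 79.4 and 53.8 normalized counts in WT and 94.9, 77.6, 58.8 and 88.4 in MøFoxO1-KO livers. The MøFoxO1-KO values fell inside the WT range, and the log2 fold change was -0.19 (95% interval -0.86 to 0.48, adjusted p = 0.796). Sox9 ran against Krt19 across the mice: WT mouse 23 was highest in Sox9 and lowest in Krt19, and WT mouse 25 the reverse.

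Spp1 (chr5:104435118-104441050, plus strand) encodes osteopontin, a secreted protein made by bile duct cells and also by lipid-associated macrophages. WT livers held 1558, 1131, 1304 and 1129 normalized counts of it, and MøFoxO1-KO livers 828, 1316, 1149 and 1065. Of the 4 MøFoxO1-KO livers 2 were below the lowest WT liver, and the others lay inside the WT range. The means were 1280 ± 202 and 1090 ± 203 (SD, n = 4 each), a log2 fold change of -0.23 (95% interval -0.60 to 0.13, adjusted p = 0.514), so that the interval spanned from 0.661 to 1.09 times the WT level. Gpnmb and Trem2, which define lipid-associated macrophages, were lower in all 4 MøFoxO1-KO livers than in any WT liver, with log2 fold changes of -4.13 (adjusted p = 0.0382) for Gpnmb and -3.88 (adjusted p = 0.0983) for Trem2. Gpnmb kept its call with 1 mouse left out only where that was MøFoxO1-KO mouse 28, and its adjusted p otherwise lay between 0.0513 without WT mouse 25 and 0.156 without MøFoxO1-KO mouse 27. By limma-voom its adjusted p was 0.138. Of the whole list of 10 macrophage markers 4 were above and 6 below 0, 1 was called by edgeR, 0 by limma-voom, and 4 had an adjusted p under 0.05 in DESeq2, where 4.42% of all genes did. These 4 were Gpnmb (2.97e-07), Trem2 (0.000282) and Mmp12 (5.54e-05), a macrophage elastase gene, with a lower level, and Fabp5 (0.00378), a fatty acid-binding protein gene, with a higher level in MøFoxO1-KO livers, of which Mmp12 and Fabp5 are named here after their values were seen. The summed level of the 10 was 7628 to 9919 normalized counts in WT livers and 7275 to 10170 in MøFoxO1-KO livers, but Ctsd, a lysosomal protease gene, made up 6634 of the WT mean of 8906. The part of these cells in the Spp1 values was not tested. In bulk liver, fewer cells of a type and less RNA per cell cannot be told apart.

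Krt8 and Krt18 were the most abundant members, as the keratins of hepatocytes. Krt8 (chr15:101996711-102004342, minus strand) and Krt18 (chr15:102028216-102032026, plus strand) lie 23.7 kb apart in GENCODE M21 and point away from each other. Their 300-base promoter windows, from 250 bases before to 50 after the RefSeq start (GRCm38.p6), are shown because the products pair in 1 filament while the fitted fold changes had opposite signs. Capitals mark matches, on either strand, to TATAAA (the box at many core promoters, in 13.6% of 32851 mouse promoter windows of the same length), GGGCGG (Sp1 box, 35.7%), TGANTCA (AP-1 site, 7.81%) and GTAAACA (forkhead site, 3.65%). The Krt8 window holds TATAAA overlapping its own reverse complement across the start, from position -3, and the Krt18 window holds none of these 4 strings.
Krt8, chr15:102004293-102004592, minus strand: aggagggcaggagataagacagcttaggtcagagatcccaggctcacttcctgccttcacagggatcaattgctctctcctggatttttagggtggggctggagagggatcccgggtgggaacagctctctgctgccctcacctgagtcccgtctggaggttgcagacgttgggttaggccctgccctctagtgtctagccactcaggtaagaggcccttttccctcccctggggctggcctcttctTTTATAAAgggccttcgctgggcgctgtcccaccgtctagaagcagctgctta
Krt18, chr15:102027966-102028265, plus strand: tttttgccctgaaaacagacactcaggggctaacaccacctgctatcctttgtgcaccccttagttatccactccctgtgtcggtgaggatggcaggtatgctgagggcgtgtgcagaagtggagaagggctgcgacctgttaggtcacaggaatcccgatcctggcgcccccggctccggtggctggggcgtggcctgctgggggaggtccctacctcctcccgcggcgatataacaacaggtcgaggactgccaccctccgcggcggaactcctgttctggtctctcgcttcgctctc

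Krt8 had 7131, 6280, 5602 and 4839 normalized counts in WT mice 22 to 25, and 4545, 4257, 4141 and 5013 in MøFoxO1-KO mice 26 to 29. In 3 of the 4 MøFoxO1-KO livers Krt8 was below the lowest WT liver, and MøFoxO1-KO mouse 29 lay above WT mouse 25. The means were 5963 ± 976 and 4489 ± 389 (SD, n = 4 each), and the fit gave 0.753 times the WT level (95% interval 0.603 to 0.939). The log2 fold change of -0.41 (SE 0.14) had an adjusted p of 0.212 in edgeR (0.017 before adjustment over the 13278 genes) and of 0.111 in DESeq2. The exact two-sided permutation test over the 8 livers gave p = 0.0571, where the smallest value that 4 against 4 allows is 0.0286. Among all tested genes 8.01% had an edgeR p at least as small. Without WT mouse 25 or without MøFoxO1-KO mouse 29 the groups did not overlap, and with any 1 mouse left out the adjusted p stayed between 0.162 and 0.47. A processed pseudogene of Krt8 is annotated elsewhere in the genome, and how reads shared with it were handled is not given in the sources used here.

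Krt18 gave 4299, 2948, 4631 and 3077 normalized counts in WT and 3352, 4223, 3657 and 4656 in MøFoxO1-KO livers. The groups overlapped across nearly their whole range, with a log2 fold change of 0.09 (95% interval -0.31 to 0.49, adjusted p = 0.846) that turned to -0.01 without WT mouse 23. Within each liver the pair was compared as the log2 ratio of Krt8 to Krt18 counts per kilobase of exon, which needs no scaling between libraries. The ratio was 0.36, 0.72, -0.09 and 0.29 in the WT and 0.07, -0.36, -0.19 and -0.26 in the MøFoxO1-KO livers. Krt8 was the more abundant of the pair per length in 3 of 4 WT livers and the less abundant in 3 of 4 MøFoxO1-KO livers. The mean ratio differed by -0.50 (0.32 ± 0.33 in WT, -0.18 ± 0.18 in MøFoxO1-KO), with exact two-sided permutation p = 0.0571, so the groups, which overlapped, were not separated by this test.

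**Figure D2:**
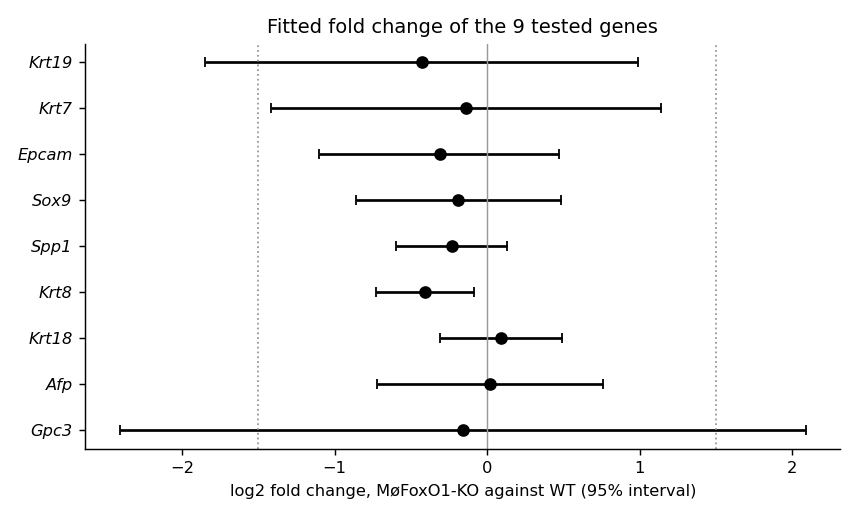
Fitted log2 fold change (points, horizontal axis) with its 95% interval (bars) for the 9 tested genes, with dotted lines at the calling threshold of 1.5 in either direction. The Krt8 interval, from -0.73 to -0.09, lies below 0 without adjustment for the number of genes tested, and the widest interval, that of Gpc3, runs from -2.41 to 2.09.

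Per length of exon, Krt8 and Krt18 stood far above the other members in every liver. Means were 201 ± 33.0 RPKM (computed here on TMM-scaled library sizes) for Krt8 and 163 ± 37.0 for Krt18 in WT livers, and 152 ± 13.1 and 173 ± 25.3 in MøFoxO1-KO livers. Spp1 followed at 47.4 ± 7.48 in WT and 40.3 ± 7.51 in MøFoxO1-KO livers on this scale. Epcam, Sox9, Krt19 and Afp came next, with means between 0.750 and 1.35, and did not differ from one another beyond their spread. Gpc3 was at 0.638 ± 0.572 in WT and Krt7 at 0.207 ± 0.141, and H19 was last at 0.0565 ± 0.0391. Of the 4 keratins' counts per kilobase of exon, Krt19 made up between 0.0379 and 0.698% and Krt7 between 0.0175 and 0.12% in a liver.

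Afp, alpha-fetoprotein, is the main serum protein of the fetal liver, and its gene (chr5:90490737-90508907, plus strand) sits 14.1 kb downstream of its adult relative Alb. Its promoter window is shown since it is the classical switch between fetal and adult liver. The same 4 strings are in capitals, and the window holds 1 TATAAA.
Afp, chr5:90490464-90490763, plus strand: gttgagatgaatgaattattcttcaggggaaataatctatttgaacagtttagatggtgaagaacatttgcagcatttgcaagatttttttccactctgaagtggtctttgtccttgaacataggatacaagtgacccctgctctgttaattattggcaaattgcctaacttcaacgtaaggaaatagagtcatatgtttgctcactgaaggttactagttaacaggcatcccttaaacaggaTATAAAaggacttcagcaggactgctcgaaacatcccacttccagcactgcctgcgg

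Afp was detected in each liver, at 70.3, 67.9, 23.1 and 57.7 normalized counts in WT and 68.1, 49.0, 52.2 and 52.6 in MøFoxO1-KO mice. The MøFoxO1-KO values fell inside the WT range, whose low end was WT mouse 24. The means were 54.7 ± 21.8 and 55.5 ± 8.56 (SD, n = 4 each), a log2 fold change of 0.02 (95% interval -0.72 to 0.76, adjusted p = 0.982). Counted against Alb in the same liver and per kilobase, Afp had a geometric mean ratio of 4.16e-05 in WT and 3.96e-05 in MøFoxO1-KO livers (log2 difference -0.07, exact two-sided permutation p = 0.886). An antisense gene, Gm43449, overlaps 9820 bases of Afp and held between 8 and 27 counts, and without a stated strand setting its reads and those of Afp cannot be told apart.

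Repressors that silence Afp after birth were measured well. Zhx2, the gene behind the strain difference in adult Afp, was lower in all 4 MøFoxO1-KO livers, at 215.5, 270, 199 and 210 normalized counts in WT against 197.5, 136, 190 and 143. The gap between the groups was small, from 197.5 in the highest MøFoxO1-KO to 199 in the lowest WT liver, and the log2 fold change of -0.42 (SE 0.17) had an adjusted p of 0.254. Zbtb20, a zinc finger repressor of Afp, had a log2 fold change of -0.19 (SE 0.21, adjusted p = 0.684). Over the list of 13 regulators, 3 genes were above and 10 below 0 with a median of -0.13, 0 were called by edgeR, limma-voom or DESeq2, 3 had an unadjusted edgeR p under 0.05 (16.7% of all tested genes), and 1, Zhx2, had groups that did not overlap (9.71% of all tested genes).

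Gpc3 (chrX:52272426-52613950, minus strand) encodes glypican 3, a heparan sulfate proteoglycan on the surface of fetal liver and liver tumor cells. It gave 5.62, 13.8, 30.5 and 62.7 normalized counts in WT mice 22 to 25, and 0, 3.58, 47.45 and 49.3 in MøFoxO1-KO mice 26 to 29. The groups spanned nearly the same wide range, and the 0 of mouse 26 allows up to 2.88 normalized counts (3 reads, counting error only). The log2 fold change was -0.16 (95% interval -2.41 to 2.09, adjusted p = 0.954).

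The spread of Gpc3 ran with that of mesothelial genes, which mark the cells that cover the liver's surface. The summed level of 7 such genes found in the table was 43.1, 150, 285 and 692 normalized counts in WT and 13.4, 27.5, 224 and 526 in MøFoxO1-KO mice, in the same order of mice within each group as Gpc3. Msln, the gene of mesothelin, had 0, 35, 61 and 146 reads in WT and 0, 1, 37 and 121 in MøFoxO1-KO livers. After subtracting the group means, Pearson's r between Gpc3 and the 6 mesothelial genes that passed the filter lay between 0.84 and 0.96 over the 8 mice, as a description of livers that share library and tissue piece. The same r lay between 0.61 and 0.82 for Krt7, between 0.31 and 0.57 for Krt19, and between -0.39 and -0.19 for Epcam. Against 15 tested cholangiocyte genes r spread widely in both directions. It ran from -0.76 to 0.80 for Krt7 and from -0.85 to 0.86 for Krt19. For Epcam it ran from -0.89 to 0.86, and for Gpc3 from -0.61 to 0.62. Of these 6 mesothelial genes 0 had a fitted log2 fold change above 0 and 6 below, with a median of -0.59, and 0 had an unadjusted p under 0.05 in edgeR or were called by DESeq2. The part of surface tissue in the Gpc3, Krt7 and Krt19 values was not tested.

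**Figure D3:**
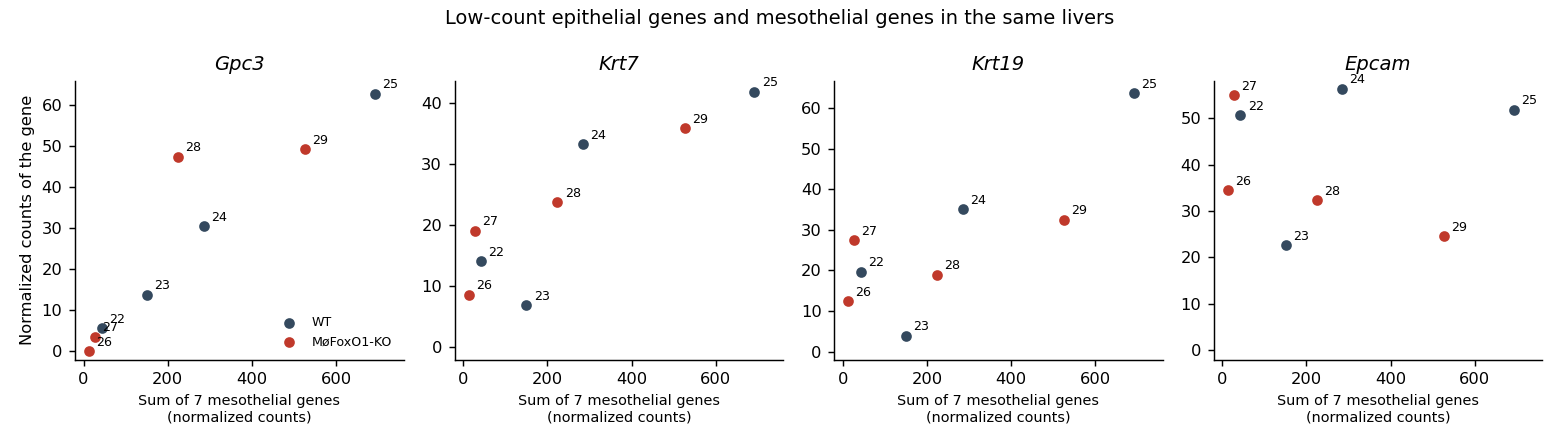
Normalized counts of Gpc3, Krt7, Krt19 and Epcam (vertical axes) against the summed normalized counts of 7 mesothelial genes (horizontal axis) in the same liver, 1 point per mouse with its number, WT in dark blue and MøFoxO1-KO in red. WT mouse 25, with the highest sum at 692, is also highest in Gpc3, Krt7 and Krt19, while Epcam follows no such order.

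H19 (chr7:142575529-142578143, minus strand), an imprinted long noncoding RNA of the fetal liver, was close to absent. It had 1, 3, 1 and 4 reads in WT and 1, 7, 1 and 0 in MøFoxO1-KO livers, 9 reads in each group, and did not pass the filter. The 0 of mouse 29 allows up to 3.36 normalized counts (3 reads, counting error only). Fitted without the filter, its log2 fold change had a 95% interval of -2.13 to 2.44, so that little can be said of it at this depth.

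Igf2, the gene of the fetal growth factor insulin-like growth factor 2, lies 72.6 kb from H19 in the same imprinted cluster on chromosome 7. It had 11, 9, 7 and 4 reads in WT and 23, 19, 28 and 22 in MøFoxO1-KO livers. Each MøFoxO1-KO liver stood above each WT liver, with means of 7.40 ± 2.77 and 23.98 ± 2.04 normalized counts (SD, n = 4 each), a low level in both groups. The log2 fold change of 1.68 (SE 0.36) had an adjusted p of 0.0968 in edgeR and 0.0092 in DESeq2. The log2 ratio of H19 to Igf2 per kilobase, with 0.5 read added, differed by -2.10 between groups (exact two-sided permutation p = 0.114). Its spread, 1.27 in WT and 1.73 in MøFoxO1-KO livers as SD, rests on the few reads of H19 and, in WT livers, also of Igf2.

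**Figure D4:**
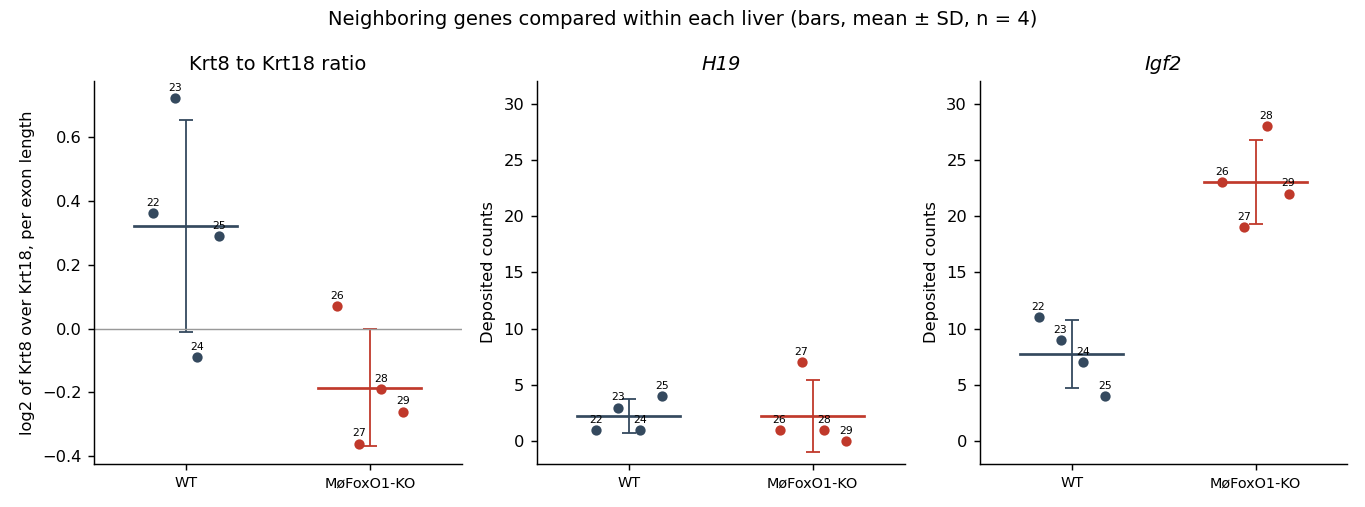
Left, log2 ratio of Krt8 to Krt18 counts per kilobase of exon in each liver; middle and right, deposited counts of H19 and of its imprinted neighbor Igf2 on a common linear axis, with WT in dark blue, MøFoxO1-KO in red and bars for the mean and SD of 4 mice. The Igf2 points run from 4 to 11 in WT livers and from 19 to 28 in MøFoxO1-KO livers, while H19 stays at or below 7 in each.

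The members did not move as 1 program from mouse to mouse. Over the 36 pairs of tested members, Pearson's r of the deviations from the group means (8 mice, log2 scale) had a median of 0.10 and ran from -0.83 for Krt19 with Sox9 to 0.92 for Krt19 with Krt7, with 19 pairs above 0. Krt7 with Gpc3 had 0.77, Spp1 with Krt18 0.66 and Sox9 with Krt8 0.65. The genes whose deviations were most like those of a member with at least 50 normalized counts were Elf3 and Hspa9 for Sox9, Rpl38-ps2 and Cyren for Spp1, Rnaset2a and Sap30bp for Krt8, Acvrl1 and Gm15998 for Krt18, and Serpina3m and Cd81 for Afp, with r between 0.96 and 0.99. With 8 mice and 13278 genes to choose from, such values are a description.

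Of the other genes of bile duct cells, none passed the test in edgeR, DESeq2 or limma-voom. Of a list of 22 cholangiocyte genes 15 passed the filter, of which 3 were above and 12 below 0 with a median log2 fold change of -0.37. By edgeR 0 were called, and 4 of the 15 had an unadjusted p under 0.05, all 4 lower, against 16.7% of all tested genes in either direction. By DESeq2 and by limma-voom 0 were called. Groups did not overlap in 2 of the 15, both lower in MøFoxO1-KO livers, where 4.71% of all tested genes were lower without overlap. These were Anxa4, a calcium-binding annexin of duct epithelium, at 990 ± 132 in WT and 765 ± 70.7 in MøFoxO1-KO livers (log2 fold change -0.37, adjusted p = 0.199), and Bicc1, the gene of an RNA-binding protein whose loss gives cysts in kidney and ducts, at 61.8 ± 2.74 and 42.45 ± 5.55 (-0.54, adjusted p = 0.234). Cd24a, a surface marker of progenitor cells, stood at 69.8 ± 25.95 and 58.5 ± 19.3 (-0.26, adjusted p = 0.755). Krt23, a stress-induced keratin named here after its values were seen, went from 125.5 to 41.1 normalized counts with an adjusted p of 0.234.

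Notch signaling and the coactivator YAP drive the ductular fate of liver cells. Of 16 genes of these pathways 14 passed the filter, 3 above and 11 below 0 with a median of -0.21. By edgeR 0 were called and 3 of the 14 had an unadjusted p under 0.05, against 16.7% of all tested genes. By limma-voom 0 were called, and by DESeq2 1 had an adjusted p under 0.05, against 4.42% of all genes. In 2 of the 14, Yap1 and Tead1, MøFoxO1-KO livers were lower without overlap, against 4.71% of all tested genes. Yap1 was lower in all 4 MøFoxO1-KO livers, at 917, 1142, 868.5 and 898 normalized counts in WT against 716, 782, 764 and 688.5, a log2 fold change of -0.37 (SE 0.12, adjusted p = 0.178). Tead1, the DNA-binding partner of YAP, had 181, 227, 220 and 218 normalized counts in WT and 62.3, 41.8, 177.5 and 99.6 in MøFoxO1-KO livers. Its groups met within a few counts at MøFoxO1-KO mouse 28 and WT mouse 22, and the log2 fold change of -1.14 (SE 0.36) had an adjusted p of 0.186 in edgeR and 0.0486 in DESeq2. Without MøFoxO1-KO mouse 28 it was -1.62 with an edgeR adjusted p of 0.0376, a setting that called 82 genes over all, against 25 with every mouse. With any other single mouse left out, the adjusted p of Tead1 lay between 0.232 and 0.383. Its log2 fold change was then as small as -0.89 (without MøFoxO1-KO mouse 27).

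Other fetal and tumor genes went both ways. Of 20 genes 14 passed the filter, 6 above and 8 below 0 with a median of -0.40. By edgeR 0 were called and 7 of the 14 had an unadjusted p under 0.05, against 16.7% of all tested genes. By limma-voom 0 were called. By DESeq2 4 of the 14 had an adjusted p under 0.05, against 4.42% of all genes, namely Igf2, Meg3 and Tff3, higher, and Cbr3, lower. In 3 of the 14, Igf2, Meg3 and Tff3, each MøFoxO1-KO liver was above each WT liver, where 5.00% of all tested genes were higher without overlap. Meg3, an imprinted noncoding RNA, had 20, 4, 10 and 35 reads in WT and 201, 71, 44 and 215 in MøFoxO1-KO livers (log2 fold change 3.06, SE 0.67, adjusted p = 0.0993 in edgeR and 0.000124 in DESeq2). Its edgeR adjusted p was 0.0388 without MøFoxO1-KO mouse 28 and lay between 0.0904 and 0.22 with any other single mouse left out. Tff3, a trefoil peptide gene of mucus-secreting cells, had 0, 15, 1 and 0 reads against 58, 359, 20 and 102 (5.27, SE 1.22, adjusted p = 0.11 in edgeR and 0.039 in DESeq2). Ly6d, a surface antigen gene named here after its values were seen, went the other way, from 467 ± 337 to 117 ± 66.5 normalized counts (0.25 times the WT level, adjusted p = 0.148). Of 13 proliferation genes 11 passed the filter, 4 above and 7 below 0 with a median of -0.03, and 0 were called by edgeR or had groups that did not overlap. By edgeR 1 of the 11 had an unadjusted p under 0.05 (16.7% of all tested genes), and by DESeq2 0 had an adjusted p under 0.05 (4.42% of all genes).

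Among the genes of Mallory-Denk bodies and of the filaments' anchors, 1 of 10 tested was called by edgeR, where 0.188% of all tested genes were, and 0 by limma-voom. Ppl, the gene of periplakin, which ties keratin and vimentin filaments to the cell membrane, had 183, 382.5, 218 and 269 normalized counts in WT mice and 91.1, 102, 78.8 and 89.6 in MøFoxO1-KO mice. Every MøFoxO1-KO liver was below every WT liver, and Ppl fell by 1.54 on the log2 scale (SE 0.23, adjusted p = 0.0337), to 0.343 times the WT level (95% interval 0.241 to 0.488). The call was lost without WT mouse 23 (log2 fold change -1.31) or MøFoxO1-KO mouse 28 (-1.47), where it came under the 1.5 threshold, and without WT mouse 25 or MøFoxO1-KO mouse 26, 27 or 29, where the adjusted p rose to 0.0666, 0.115, 0.109 and 0.0788. By limma-voom the call was lost too (-1.49, adjusted p = 0.0703), while by DESeq2 the adjusted p was 8.98e-07. Of this list 2 genes were above and 8 below 0, with a median of -0.30. By edgeR 4 of the 10 had an unadjusted p under 0.05, all 4 lower, against 16.7% of all tested genes in either direction.

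**Figure D5:**
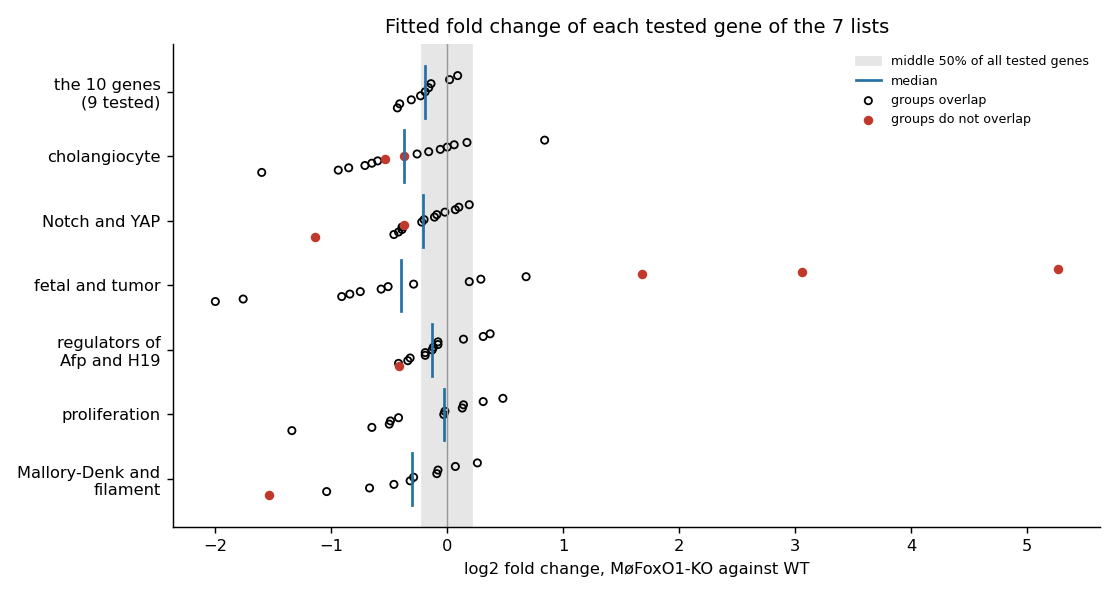
Fitted log2 fold change (horizontal axis) of each tested gene of the 7 lists, filled red where the 4 MøFoxO1-KO and 4 WT livers do not overlap, with blue lines for list medians and a grey band between the quartiles of all tested genes (-0.22 to 0.21). The member median at -0.19 lies inside that band, and the points farthest to the right are Tff3 at 5.27, Meg3 at 3.06 and Igf2 at 1.68.

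Markers of other liver cells were read beside these values. Of 9 hepatocyte genes 8 were above 0 with a median of 0.19, and 2, Serpina1c and Apoa1, were higher without overlap (5.00% of all tested genes). Serpina1c had a log2 fold change of 1.49 (adjusted p = 0.037 in edgeR and 1.01e-07 in DESeq2), just under the threshold of size. It was past that threshold without WT mouse 25 (1.75) or MøFoxO1-KO mouse 28 (1.59), and by limma-voom (1.54, adjusted p = 0.0462). With any other single mouse left out, the edgeR adjusted p of Serpina1c rose above 0.05. It then lay between 0.062 (without WT mouse 23) and 0.135 (without MøFoxO1-KO mouse 27). Apoa1 was at 1.07 (adjusted p = 0.0765 in edgeR and 1.47e-05 in DESeq2) and Alb at 0.19 (adjusted p = 0.687). The summed level of the 9 was 1.195e+06 to 1.64e+06 normalized counts in WT livers and 1.433e+06 to 2.071e+06 in MøFoxO1-KO livers. Alb alone made up 8.607e+05 of the WT mean of 1.422e+06 and 9.837e+05 of the MøFoxO1-KO mean of 1.79e+06. Of 10 genes of stellate cells and myofibroblasts 4 were above and 6 below 0 with a median of -0.12. Their summed level was 4721 to 7642 normalized counts in WT livers and 5153 to 8578 in MøFoxO1-KO livers. Dcn alone made up 3555 of the WT mean of 6773 and 4048 of the MøFoxO1-KO mean of 6550, so the sum says little of the other genes. Of these 10 genes 1, Col1a1, the gene of a type I collagen chain, was lower without overlap (4.71% of all tested genes). Its log2 fold change was -1.28 (adjusted p = 0.193). Of 10 genes of pancreas and gut, 5 had no reads in any liver and 2 passed the filter, both above 0. Of these 2, Cela1, a pancreatic elastase gene, was higher without overlap (5.00% of all tested genes). Its log2 fold change was 1.40 (adjusted p = 0.0851 in edgeR and 0.000293 in DESeq2). Without MøFoxO1-KO mouse 28 it was 1.64 (edgeR adjusted p = 0.00589). With any other single mouse left out, the edgeR adjusted p of Cela1 lay between 0.126 and 0.261. The part of these cells in the members' values was not tested.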

How the data were processed

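Aliquots of whole liver from 8 mice were analyzed by RNA-Seq of polyadenylated RNA. The authors deposited 1 table of raw counts per Ensembl gene on GRCm38 (mm10). STAR and featureCounts are named in the submitters' processing notes, while versions, the strand setting and the handling of reads shared between genes are not given in the sources used here. The table also gives the summed exon length of each gene in bases, used for levels per kilobase. Symbols came from GENCODE M21 (46005 of 46517 genes matched), promoter windows from RefSeq (7 of the 10 members matched).

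Genes with enough reads (filterByExpr of edgeR 4.0.16, minimum count 10, minimum total 15) were normalized by TMM and tested by the quasi-likelihood F test without covariates. Adjustment for 13278 genes followed Benjamini and Hochberg, and calls needed an adjusted p under 0.05 with an absolute log2 fold change over 1.5. Intervals are at 95%, from the fitted SE and its degrees of freedom. Single ratios were compared by exact two-sided permutation tests (scipy 1.17.1). DESeq2 1.42.0, limma-voom (limma 3.58.1), other scalings and filters, and leaving out each mouse were alternatives. The labels name no batch. The mice are littermates of 2 genotypes with 1 library each.

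The members and lists were chosen with earlier results of these data known. From lists other than the members, genes were named where the adjusted p was under 0.05 or where groups did not overlap with the higher mean at 50 normalized counts or more (at most 5 per list), with Alb, Igf2, Zhx2, Zbtb20, Trem2, Gpnmb and Cd24a in any case (1 further gene of this rule is not reported here), and Foxo1 as the target. The 2 most alike genes of each member whose mean reached 50 were named by Pearson's r of deviations. The scripts were tested on simulated data. Depth, between 15253218 and 18025481 counts per mouse, limits the precision of genes with few reads.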

Additional observations from a re-analysis of the deposited data

Results flagged for a closer look

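Among 26 groups of 4 livers examined for a single value far from the rest, 2 stood apart by Dixon's criterion at 95%, and chance alone sets apart about 1 group in 20. Epcam in WT mouse 23, at 22.62 normalized counts, lay below the other WT livers, which held between 50.6 and 56.3. H19 in MøFoxO1-KO mouse 27, at 8.36 normalized counts from 7 reads, lay above the other MøFoxO1-KO livers, which had at most 1 read.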

How the results depend on the processing

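The number of members called stayed at 0 under all alternatives run. Over all genes, 25 were called, against 144 by DESeq2, 13 by limma-voom, 120 without the filter on low counts, 39 by adjusted p alone, and 3 to 82 when 1 mouse was left out. Members whose groups did not overlap numbered 0 to 1 with 1 mouse left out: without WT mouse 25 or MøFoxO1-KO mouse 29, Krt8 no longer overlapped. The members' median ran from -0.38 without WT mouse 23 to 0.00 without WT mouse 25. Krt8, Epcam and Spp1 kept a negative sign in each alternative, with adjusted p from 0.111 to 0.47 for Krt8.

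Fold changes near 0 changed sign with single mice. Without WT mouse 25 Krt19 was 0.21, Krt7 0.26, Gpc3 0.59 and the Afp to Alb ratio 0.01. Without WT mouse 23 Sox9 was 0.13 and Krt18 -0.01, and without WT mouse 24 Krt7 was 0.06 and Afp -0.23. Without MøFoxO1-KO mouse 26 Krt7 was 0.13, Afp -0.09 and Gpc3 0.26. Without MøFoxO1-KO mouse 27 Gpc3 was 0.20 and the Afp to Alb ratio 0.05, without WT mouse 22 that ratio was 0.11, and by limma-voom Krt19 was 0.01 and Gpc3 -1.30, against -0.16 in edgeR. The full ranges with 1 mouse left out were -0.79 to 0.21 for Krt19, -0.48 to 0.26 for Krt7, -0.23 to 0.16 for Afp and -0.69 to 0.59 for Gpc3. With 1 mouse left out the ratio difference ran from -0.64 to -0.37 for Krt8 to Krt18, from -2.89 to -1.52 for H19 to Igf2 and from -0.34 to 0.11 for Afp to Alb. Settings for genes of other lists were added after seeing the data. No paired analysis was possible because the groups share no replicate numbers.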
